A study of Mus musculus with 12 samples.

Results

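SIRT3 is a deacetylase of the mitochondrial matrix that needs NAD and removes acetyl groups from lysines of metabolic enzymes. It acts on the protein after it is made, so that the activity of a substrate can change while its transcript does not. In pancreatic islets, mitochondrial metabolism of glucose and amino acids couples nutrient supply to insulin release, and the beta cell is known for low antioxidant capacity. Messenger RNA levels are described here for 8 nuclear genes that encode mitochondrial proteins known as SIRT3 substrates: Idh2, Sod2, Glud1, Got2, Acss1, Aldh2, Shmt2 and Ppif. They were chosen by name, from knowledge of the protein substrates and not by a rule on their levels. Earlier results of these data were known at that time. Each of the 8 matched 1 of the 54532 Ensembl genes listed for every library, and 8 of 8 passed the filter on low counts that left 16076 genes. RNA abundance was the measured quantity, and acetylation of the proteins was not analysed here.

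Islets, the endocrine cell clusters of the pancreas, came from male C57BL/6 mice labelled as 40 weeks old. The 12 RNA-seq libraries formed 4 groups of 3: wild type mice (WT) and mice with a Sirt3 knockout selective for beta cells (KO), each on a standard diet with 6.2% fat (STD) or on a high fat diet (HFD) in which fat gave 60% of the calories. High fat feeding lasted 36 weeks in both genotypes. It followed 4 weeks of standard food in WT mice, but 6, 5 and 6 weeks in HFD KO 1, 2 and 3, so genotype and the earlier period cannot be told apart within the HFD groups. In HFD KO, these periods and the 36 weeks together exceed the labelled age of 40 weeks. The labels do not resolve this, and it bears on every comparison with HFD KO. The labels do not name the Cre driver or the deleted exons, and they do not tell if each library is a different animal or pool. What the p-values measure is thus the spread between these libraries, which may be technical.

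Libraries held 16037709 to 20864920 counts. Every beta cell marker of 8 was counted in every library, as were 7 of 7 alpha, 12 of 12 acinar, 8 of 8 ductal, 9 of 9 macrophage and 7 of 7 lymphocyte markers, so the islets carried other pancreatic and immune cells. In such bulk RNA, fewer cells of a type and less RNA per cell cannot be told apart. Sirt3 (ENSMUSG00000025486) read 9.04, 11.3 and 11.5 CPM (counts scaled to library size) in STD WT, 6.59, 5.97 and 5.86 CPM in STD KO, 11.4, 9.3 and 11.8 CPM in HFD WT, and 7.85, 11.5 and 6.21 CPM in HFD KO. The library labelled HFD KO 2 lay within the WT range, and the other 5 KO libraries lay below every WT library. Psmd13, which overlaps Sirt3 on the opposite strand, also had its highest level in that library, at 94.1 CPM. Its level was 85.7 CPM in HFD KO 1, where Sirt3 was at 7.85 CPM, and 52.8 CPM in HFD KO 3. The part of Psmd13 reads in the Sirt3 counts was not tested. Whether counting used the strand is not given in the sources used here, and non-beta cells keep Sirt3, so its total is a weak check of the labels. The log2 fold change of Sirt3 in KO islets was -0.79 (SE 0.22, adjusted p = 0.156) on the standard diet and -0.35 (SE 0.22, adjusted p = 0.363) on the high fat diet in edgeR's quasi-likelihood test.

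No substrate gene changed past the threshold in KO islets on either diet. With edgeR's quasi-likelihood test and Benjamini-Hochberg adjustment over all 16076 genes, 0 of the 8 passed 0.05 on the standard diet, where 1.71% of all tested genes passed, and 0 of the 8 on the high fat diet, where 7.4% passed. At an unadjusted p under 0.05, 0 of 8 passed on the standard diet (8.66% of all genes) and 1 of 8, Shmt2, on the high fat diet (24.3% of all genes). DESeq2's Wald test also called 0 of 8 in each. For 7 of the 8 genes, Acss1 being the exception, the 95% interval of the KO to WT ratio lay within a 2-fold change in both directions on both diets. The intervals rest on the spread between these libraries, which may be technical, so they may not bound a difference between mice. They describe RNA of whole islets, and those of the high fat diet include the library labelled HFD KO 2. These intervals say nothing of protein amount or activity. The median log2 fold change of the 8 genes was -0.13 on the standard diet, beside -0.02 for all genes tested, and -0.22 on the high fat diet, beside 0.00.

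**Figure D1:**
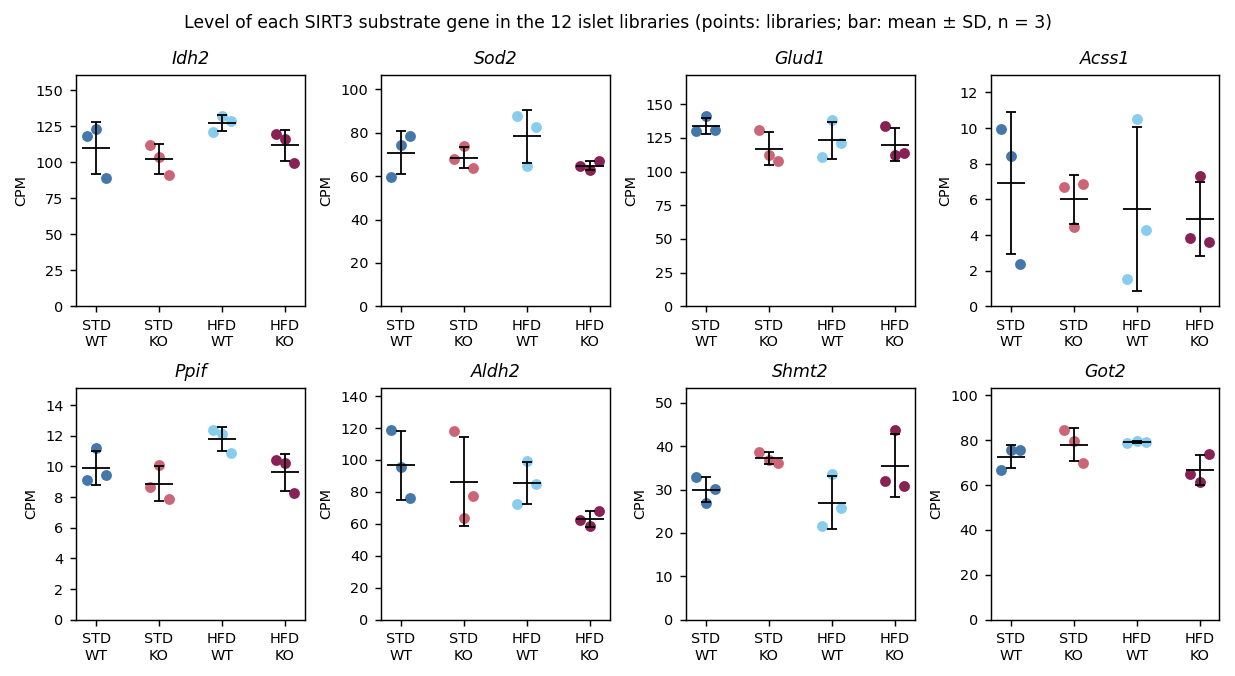
CPM of each of the 8 substrate genes (vertical axis, from 0) in the 4 groups (horizontal axis); points are libraries in the order of their numbers, and bars show the mean ± SD of 3 libraries. Idh2, Sod2, Glud1, Got2 and Ppif varied less than 2-fold over all 12 libraries, whereas Acss1 ranged from 1.56 to 10.5 CPM.

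The 8 transcripts differed widely in abundance. Per length, as the deposited FPKM (counts scaled by gene length and library total), Idh2 averaged 111 over the 12 libraries, Glud1 103, Aldh2 61, Got2 50.2, Sod2 40.7 and Shmt2 28.2, which placed these 6 between percentiles 80.9 and 95.9 of the tested genes. Acss1 averaged 5.04 FPKM and Ppif 4.38 FPKM, at percentiles 40.9 and 38.1, close to Sirt3 itself at 6.51 FPKM. The lengths behind these FPKM are shorter than all annotated exons of each gene. With the exon length of GENCODE M21 in their place, Idh2 at 43.6 and Glud1 at 29.4 still led, but Sod2 (7.05) came below Shmt2 (10.5), and Acss1 (1.43) below Ppif (1.98).

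Spread between libraries of the same group also set the genes apart. The within-group SD of log2 CPM was 0.111 for Got2 and 0.134 for Glud1, at percentiles 3.38 and 7.45 of all tested genes, whose median was 0.286. Ppif (0.159), Sod2 (0.166), Idh2 (0.167) and Shmt2 (0.225) were also steadier than that median. Aldh2, at 0.305, was near it, and Acss1, at 0.924, varied more than 91.3% of tested genes.

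Idh2 and Sod2 belong to the matrix defence against oxidants. Idh2 encodes the NADP-dependent isocitrate dehydrogenase of mitochondria, a source of NADPH for glutathione and thioredoxin reduction. The gene (ENSMUSG00000030541) lies on chromosome 7, 80094846 to 80115392, minus strand (mm10, GENCODE M21, as for all positions below). Its level was 118, 123 and 89.1 CPM in STD WT, 112, 104 and 91.6 CPM in STD KO, 121, 132 and 129 CPM in HFD WT and 120, 116 and 99.4 CPM in HFD KO. The standard diet groups overlapped; on the high fat diet each KO library lay below each WT library, but only just, with KO 1 next to WT 1. In KO against WT, the log2 fold change of Idh2 was -0.10 (SE 0.14, 95% interval -0.42 to 0.21, adjusted p = 0.999) on the standard diet. It was -0.19 (SE 0.14, 95% interval -0.50 to 0.13, adjusted p = 0.459) on the high fat diet. Without HFD KO 3 the latter was -0.10, and with an offset corrected for gene length -0.34 (adjusted p = 0.156). In deposited FPKM, Idh2 was above 2 related genes: the cytosolic Idh1 averaged 28.5 FPKM and the NAD-dependent subunit Idh3a 28.7 FPKM. The lengths behind these values were 1019 bp for Idh2 and 2176 bp for Idh3a. Exon length was not tried for the related enzymes, and Idh3b and Idh3g were not compared in FPKM. The ratio of Idh2 to Idh1, both in FPKM, lay between 3.36 and 5.16 in all 12 libraries, and KO and WT overlapped on both diets.

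Sod2 encodes manganese superoxide dismutase, which turns matrix superoxide into hydrogen peroxide (ENSMUSG00000006818, chromosome 17, 13006846 to 13040063, plus strand). Libraries read 59.7, 74.3 and 78.4 CPM in STD WT, 68, 73.7 and 63.9 CPM in STD KO, 87.6, 64.7 and 82.9 CPM in HFD WT and 64.8, 62.8 and 67.2 CPM in HFD KO. All groups overlapped with their neighbours; the HFD KO libraries were close together and at the low end, and HFD WT 2 lay among them. The labels do not say that the library numbers pair KO with WT. With HFD libraries paired by number, a pairing tried from these data and not settled by them, the log2 ratio of KO to WT was -0.44, -0.04 and -0.30. These are below 0 in each, which is no test. By number, the STD ratios were mixed, at 0.19, -0.01 and -0.30. The difference between KO and WT was -0.05 on the log2 scale (SE 0.14, adjusted p = 0.999) on the standard diet and -0.27 (SE 0.14, 95% interval -0.58 to 0.04, adjusted p = 0.263) on the high fat diet. Without HFD WT 2 the latter was -0.41 (adjusted p = 0.103). The cytosolic Sod1, a copper and zinc enzyme, had a log2 fold change of 0.65 (SE 0.18, adjusted p = 0.0568) in HFD KO islets. The FPKM ratio of Sod2 to Sod1 was 0.715, 0.54 and 0.763 in HFD WT and 0.303, 0.314 and 0.497 in HFD KO. On that diet the ratio was lower in each KO library than in each WT library, with p = 0.10 in a two-sided exact permutation test, the smallest that 3 against 3 allows, and 0.40 after Benjamini-Hochberg adjustment over the 16 ratios of members to related enzymes that were compared.

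Further genes remove the peroxide that Sod2 makes, or supply or use NADPH. Of 11 tested genes of this list, 1 rose in KO islets on the standard diet (1.71% of all tested genes were called in either direction) and 2 on the high fat diet (7.4%), and none fell; the list's median log2 fold change was 0.16 and 0.34. An unadjusted p under 0.05 was found for 2 on the standard diet (8.66% of all tested genes) and 7 on the high fat diet (24.3%), and DESeq2 called 1 and 3. The list and the substrate genes were not tested against each other. Txnrd2, the mitochondrial thioredoxin reductase, was at 9.08, 7.98 and 10 CPM in STD WT and 19.2, 25 and 16.6 CPM in STD KO, and at 8.04, 10.4 and 9.21 CPM in HFD WT and 29.5, 27.4 and 18.2 CPM in HFD KO. Every KO library was above every WT library. Txnrd2 rose by 1.16 on the log2 scale (SE 0.21, adjusted p = 0.0163) on the standard diet and by 1.44 (SE 0.21, adjusted p = 0.00199) on the high fat diet; the first call was lost in 4 of 12 fits that left out 1 library, with an adjusted p of up to 0.0953 without STD WT 2. Gpx1, a glutathione peroxidase of cytosol and mitochondria, averaged 106 ± 23.9 CPM in HFD WT and 276 ± 122 CPM in HFD KO (SD, n = 3). It rose by 1.38 on the log2 scale (SE 0.30, adjusted p = 0.0169). That call was lost in 4 of 12 fits that left out 1 library, with an adjusted p of up to 0.101 without HFD WT 3. Without the library labelled HFD KO 2 the value for Gpx1 was 1.02 (adjusted p = 0.056). Nnt, the transhydrogenase that regenerates NADPH across the inner membrane, had 54 counts over all 12 libraries and was not tested, whereas Idh2 had 24398.

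Glud1 and Got2 handle glutamate in the matrix. Glud1 encodes glutamate dehydrogenase, which in beta cells links amino acids to insulin release (ENSMUSG00000021794, chromosome 14, 34310727 to 34345265, plus strand). It was measured at 130, 141 and 131 CPM in STD WT, 131, 112 and 108 CPM in STD KO, 111, 138 and 121 CPM in HFD WT and 134, 112 and 114 CPM in HFD KO. WT and KO overlapped on both diets, and the group means differed by at most 1.15-fold. Its log2 fold change in KO was -0.20 (SE 0.13, 95% interval -0.48 to 0.09, adjusted p = 0.861) on the standard diet and -0.04 (SE 0.13, 95% interval -0.32 to 0.24, adjusted p = 0.895) on the high fat diet. Leaving out the library labelled HFD KO 2 put the latter at 0.01.

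Got2 encodes the mitochondrial aspartate aminotransferase of the malate-aspartate shuttle, which carries the electrons of cytosolic NADH into mitochondria (ENSMUSG00000031672, chromosome 8, 95864134 to 95888547, minus strand). Its libraries read 66.8, 75.7 and 75.5 CPM in STD WT, 84.7, 79.5 and 70 CPM in STD KO, 78.9, 79.6 and 79.4 CPM in HFD WT, and 65, 61.2 and 74 CPM in HFD KO. The HFD WT libraries were nearly identical and all above the HFD KO libraries, while the STD groups overlapped. Got2 had a log2 fold change of 0.10 (SE 0.11, 95% interval -0.14 to 0.35, adjusted p = 0.999) in STD KO and -0.25 (SE 0.11, 95% interval -0.50 to 0.00, adjusted p = 0.207) in HFD KO. Without the library labelled HFD KO 2 the HFD value was -0.19 (adjusted p = 0.458). Got2 had the smallest p of the 8 genes for a difference between the diets in the effect of genotype: the interaction was -0.35 on the log2 scale (SE 0.16, 95% interval -0.71 to 0.00, unadjusted p = 0.0499, adjusted p = 0.621). In FPKM, the ratio of Got2 to the cytosolic Got1 was 1.74, 2.09 and 1.76 in HFD WT and 1.44, 1.59 and 1.66 in HFD KO, without overlap (exact permutation p = 0.10, adjusted over the 16 ratios 0.40).

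Around them, the list of glutamate handling and the malate-aspartate shuttle had 13 tested genes. None was called by edgeR in STD KO islets, where 1.71% of all tested genes were. There 3 had an unadjusted p under 0.05 (8.66% of all tested genes), and DESeq2 called 1. In HFD KO islets 1 rose and 1 fell, where 7.4% of all tested genes were called in either direction. There 4 had an unadjusted p under 0.05 (24.3% of all tested genes), and DESeq2 called 2. Glul, the glutamine synthetase that uses the glutamate Glud1 and Got2 exchange, averaged 465 ± 83.3 CPM in HFD WT and 211 ± 12.5 CPM in HFD KO (SD, n = 3) and fell by 1.14 on the log2 scale (SE 0.18, adjusted p = 0.00309). It remained past the threshold when any 1 library was left out. Its log2 fold change was -0.60 (SE 0.18, adjusted p = 0.186) on the standard diet. Mdh1, the cytosolic malate dehydrogenase of the shuttle, averaged 211 ± 23.1 CPM in HFD WT and 344 ± 69.1 CPM in HFD KO (SD, n = 3). It rose by 0.71 on the log2 scale (SE 0.17, adjusted p = 0.0262). That call was lost in 5 of 12 fits that left out 1 library, with an adjusted p of up to 0.137 without HFD WT 3. Without the library labelled HFD KO 2 the value for Mdh1 was 0.73 (adjusted p = 0.0569).

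Acss1 and Aldh2 act on neighbouring steps of acetaldehyde and acetate use. Acss1 encodes the mitochondrial acetyl-CoA synthetase, which activates acetate and is itself switched off by acetylation (ENSMUSG00000027452, chromosome 2, 150618105 to 150668500, minus strand). It was counted 29 to 217 times per library, and its level was 9.95, 8.43 and 2.39 CPM in STD WT, 6.7, 4.44 and 6.89 CPM in STD KO, 1.56, 10.5 and 4.29 CPM in HFD WT and 3.83, 7.32 and 3.59 CPM in HFD KO. Libraries of 1 group differed more than the groups did, with the lowest and the highest value of all both in HFD WT. The log2 fold change in KO was -0.21 (SE 0.64, 95% interval -1.62 to 1.21, adjusted p = 0.999) on the standard diet and -0.15 (SE 0.65, 95% interval -1.58 to 1.28, adjusted p = 0.92) on the high fat diet. Leaving out 1 library moved the HFD value between -0.59 (without HFD WT 1) and 0.75 (without HFD WT 2), so no direction can be given.

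The cytosolic and nuclear counterpart of Acss1 did change. Acss2, which makes acetyl-CoA from acetate outside mitochondria, was at 22.5, 22.5 and 22.9 CPM in STD WT and 45.7, 43.6 and 38.1 CPM in STD KO. On the high fat diet it was at 22.2, 22 and 23.1 CPM in WT and 48.4, 36.1 and 44.4 CPM in KO. All 6 KO libraries lay above all 6 WT libraries, and the WT libraries were close to each other. Acss2 rose by 0.91 on the log2 scale (SE 0.12, adjusted p = 0.00278) on the standard diet and by 0.94 (SE 0.12, adjusted p = 0.00111) on the high fat diet, and both calls were kept under all 22 alternatives of the standard diet comparison and all 24 of the high fat comparison. The call for Acss1 differed from that for Acss2, but whether their fold changes differ from each other was examined only through the FPKM ratio of Acss1 to Acss2. That ratio overlapped between KO and WT on both diets, from 0.115 to 0.78 over the 12 libraries. Of 13 tested isozyme genes, only Acss2 was past the threshold with edgeR in either KO comparison. Of all tested genes, 1.71% passed on the standard diet and 7.4% on the high fat diet. DESeq2 called 1 isozyme gene on the standard diet and 2 on the high fat diet. An unadjusted edgeR p under 0.05 was found for 1 (8.66% of all tested genes) and 2 (24.3%).

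Aldh2 encodes the mitochondrial aldehyde dehydrogenase that clears acetaldehyde and lipid aldehydes (ENSMUSG00000029455, chromosome 5, 121566027 to 121593824, minus strand). Its level was 119, 95.3 and 75.9 CPM in STD WT, 118, 63.8 and 77.7 CPM in STD KO, 72.7, 99.2 and 84.7 CPM in HFD WT and 62.7, 58.4 and 68.1 CPM in HFD KO. The STD groups overlapped over a wide range, and on the high fat diet all KO libraries were below all WT libraries. The log2 fold change was -0.16 (SE 0.23, 95% interval -0.66 to 0.34, adjusted p = 0.999) in STD KO. At -0.44 (SE 0.23, 95% interval -0.94 to 0.06, adjusted p = 0.263), the HFD KO value of Aldh2 was the farthest below 0 of the 8 genes, a ratio of 0.737 (95% interval 0.521 to 1.04). The FPKM ratio of Aldh2 to its mitochondrial relative Aldh1b1 was lower in every KO library than in every WT library on both diets, at 8.55 to 12 against 13.2 to 14 in the STD groups and 11 to 13.2 against 14 to 20 in the HFD groups. Each of these had an exact permutation p of 0.10 and an adjusted value of 0.40 over the 16 ratios. Aldh1b1 alone had log2 fold changes of 0.20 (SE 0.25, adjusted p = 0.999) in STD KO and -0.09 (SE 0.26, adjusted p = 0.867) in HFD KO.

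Shmt2 was the member with a positive difference on both diets. It encodes the mitochondrial serine hydroxymethyltransferase, which splits serine into glycine and a one-carbon unit (ENSMUSG00000025403, chromosome 10, 127517123 to 127522444, minus strand). Its values were 32.8, 26.9 and 30.2 CPM in STD WT, 38.7, 36.8 and 36 CPM in STD KO, 21.7, 33.6 and 25.7 CPM in HFD WT and 31.9, 43.8 and 30.8 CPM in HFD KO. Each STD KO library was above each STD WT library, whereas HFD WT 2 reached into the HFD KO range and the library labelled HFD KO 2 stood above all others. With HFD libraries paired by number, which the labels do not state and these data cannot settle, the log2 ratio of KO to WT for Shmt2 was 0.56, 0.38 and 0.26. The log2 fold change of Shmt2 was 0.31 (SE 0.18, 95% interval -0.08 to 0.70, adjusted p = 0.803) on the standard diet and 0.39 (SE 0.18, 95% interval 0.00 to 0.79, unadjusted p = 0.0499, adjusted p = 0.205) on the high fat diet. Without the library labelled HFD KO 2 the HFD value was 0.21 (SE 0.17, adjusted p = 0.565). Shmt2 shares part of its locus with Ndufa4l2 on the opposite strand, which had 739 counts over all libraries beside 7023 of Shmt2 and a log2 fold change of -0.19 (adjusted p = 0.773) in HFD KO.

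The summed level of macrophage markers moved with Shmt2, but not each marker did. The sum, with all 9 detected in every library and none at 0, was 257 to 283 CPM in STD WT, 285 to 385 CPM in STD KO, 156 to 422 CPM in HFD WT and 334 to 475 CPM in HFD KO. Across the 12 libraries, log2 Shmt2 followed the log2 marker sum with Pearson's r = 0.88 (permutation p = 0.00022, adjusted over 80 relations of members and marker lists 0.0072) and Spearman's rho = 0.85 (permutation p = 0.00074, adjusted 0.0356). Without HFD WT 1 and the library labelled HFD KO 2, the 2 farthest in marker level, r was 0.68, and within groups, after removing each group's mean, it was 0.87. Both the lowest Shmt2 level, in HFD WT 1, and the highest, in HFD KO 2, came from the libraries with the lowest and the highest marker sum. A few markers carried the relation. Taken singly, Aif1 (r = 0.85), Lyz2 (0.79) and the pan-leukocyte gene Ptprc (0.73) followed Shmt2, whereas Adgre1 (0.04), Csf1r (0.32), C1qa (0.35) and C1qb (0.36) did so little or not at all. Ptprc was at 11.3, 190 and 53.5 CPM in the HFD WT libraries, while C1qa was at 76.4, 72.3 and 71.8 CPM. Without Ptprc the summed markers gave r = 0.77 (permutation p = 0.00375), and without Ptprc and Lyz2 r = 0.48 (permutation p = 0.118) and -0.38 within groups, sums chosen after the values were seen. In HFD KO against HFD WT 1 of the 9 markers, C1qb, rose past the threshold (log2 fold change 1.01, SE 0.19, adjusted p = 0.00896). In that comparison 7.4% of all tested genes passed in either direction. There 8 of the 9 log2 fold changes were positive (median 0.64), 4 had an unadjusted p under 0.05 (24.3% of all tested genes), and DESeq2 called 3. In STD KO against STD WT all 9 were positive (median 0.34) and 3 had an unadjusted p under 0.05 (8.66% of all tested genes), with none called by edgeR or DESeq2. The part of leukocytes in the genotype difference of Shmt2 was not tested.

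Lymphocyte markers moved with Acss1, and here each marker did so. Their summed level was 249, 132 and 88 CPM in STD WT, 200, 136 and 202 CPM in STD KO, 25.1, 516 and 157 CPM in HFD WT and 63, 338 and 78 CPM in HFD KO, again with all 7 markers detected in every library. Acss1 was lowest in HFD WT 1 and highest in HFD WT 2, where these markers were lowest and highest too. Pearson's r was 0.89 (permutation p = 0.00013, adjusted 0.0072) and Spearman's rho 0.85 (permutation p = 0.00089, adjusted 0.0356). The correlation was 0.76 without those 2 libraries, and 0.90 within groups. Each of the 7 markers, of B and of T cells, followed Acss1 singly, with r from 0.80 to 0.93. The part of lymphocytes in the spread of Acss1 was not tested. Sod2 related to ductal markers in the opposite sense, with r = -0.85 (permutation p = 0.00027, adjusted 0.0072) and rho = -0.82 (permutation p = 0.00205, adjusted 0.0547), and r = -0.81 without STD WT 1 and HFD WT 1; singly, the markers ran from -0.82 for Krt18 to 0.56 for Krt7. Sod2 and macrophage markers gave r = -0.83 (permutation p = 0.00063, adjusted 0.0126) and rho = -0.77 (permutation p = 0.0051, adjusted 0.0804), and r = -0.71 without the 2 farthest libraries; singly, they ran from -0.75 for Lyz2 to 0.15 for C1qa. The other 76 relations did not pass an adjusted p of 0.05 for r.

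**Figure D2:**
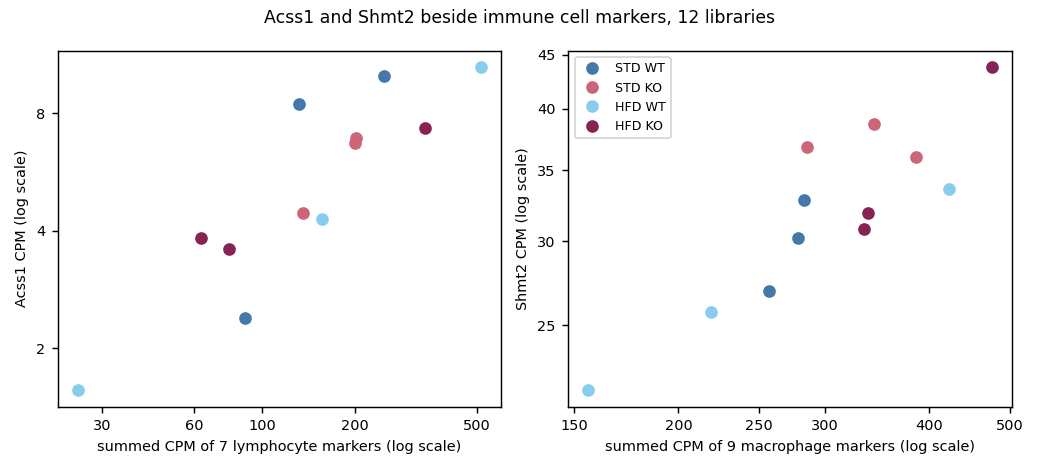
Left, CPM of Acss1 against the summed CPM of 7 lymphocyte markers; right, CPM of Shmt2 against the summed CPM of 9 macrophage markers; each point is 1 of the 12 libraries, coloured by group, and all axes are log scales. Both genes were lowest in HFD WT 1, the library with the lowest marker sums of 25.1 and 156 CPM.

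Beside Shmt2, 13 genes of serine synthesis, glycine cleavage and folate one-carbon metabolism were tested. In STD KO islets 1 rose and none fell, where 1.71% of all tested genes were called in either direction. In HFD KO islets 3 rose and 1 fell, where 7.4% of all tested genes were called. The list's median log2 fold change was 0.16 and 0.24. An unadjusted p under 0.05 was found for 2 in STD KO (8.66% of all tested genes) and 6 in HFD KO (24.3%), and DESeq2 called 1 and 4. Gcsh, the lipoyl carrier of the glycine cleavage system that takes up the glycine Shmt2 makes, was at 19.7, 14.4 and 20.8 CPM in STD WT and 34.5, 38 and 33.1 CPM in STD KO, and at 20.7, 20.7 and 19.6 CPM in HFD WT and 49.5, 58.5 and 36.7 CPM in HFD KO. No KO library overlapped a WT library. Gcsh rose by 0.94 on the log2 scale (SE 0.18, adjusted p = 0.0213) in STD KO and by 1.25 (SE 0.18, adjusted p = 0.00183) in HFD KO. The STD call was lost in 6 of 12 fits without 1 library, with an adjusted p of up to 0.0987 without STD WT 2. In HFD KO, Psph, the last enzyme of serine synthesis, rose (log2 fold change 0.96, SE 0.20, adjusted p = 0.0148). The Psph call was lost in 3 of 12 such fits (adjusted p 0.103 without HFD WT 3 and 0.0523 without the library labelled HFD KO 2). Phgdh, the first enzyme, named after its values were seen, also rose (0.86, SE 0.23, adjusted p = 0.0456). The Phgdh call was lost in 11 of 12 such fits. The cytosolic Mthfd1 fell (-0.61, SE 0.14, adjusted p = 0.0232). The Mthfd1 call was lost in 4 of 12 such fits (adjusted p 0.118 without HFD KO 1 and 0.0798 without the library labelled HFD KO 2). The FPKM ratio of Shmt2 to the cytosolic Shmt1, which averaged 3.14 FPKM, overlapped between genotypes on both diets, from 4.05 to 15.7 over the 12 libraries.

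Ppif encodes cyclophilin D, a prolyl isomerase that regulates the mitochondrial permeability transition pore (ENSMUSG00000021868, chromosome 14, 25694154 to 25700468, plus strand). It was at 9.13, 11.2 and 9.41 CPM in STD WT, 8.66, 10.1 and 7.86 CPM in STD KO, 12.4, 12.1 and 10.9 CPM in HFD WT and 10.4, 10.2 and 8.25 CPM in HFD KO. STD groups overlapped, and each HFD KO library was below each HFD WT library. The log2 fold change of Ppif was -0.16 (SE 0.16, 95% interval -0.52 to 0.20, adjusted p = 0.999) in STD KO and -0.29 (SE 0.16, 95% interval -0.65 to 0.07, adjusted p = 0.299) in HFD KO. With the length offset the HFD value was -0.18 (adjusted p = 0.61), and without HFD KO 3 it was also -0.18 (adjusted p = 0.541).

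Seen together on the high fat diet, Idh2, Got2, Aldh2 and Ppif had all 3 KO libraries below all 3 WT libraries, that is 4 of 8, where 13.3% of all tested genes did; none of the 8 had KO above WT, where 11.2% of all tested genes did. On the standard diet, Shmt2 was the 1 of 8 with KO above WT (7.52% of all tested genes), and 0 of 8 had KO below WT (7.32%). The 4 genes are not 4 independent observations, since all were read from the same 6 libraries. The 7 negative log2 fold changes on the high fat diet ran from -0.04 for Glud1 to -0.44 for Aldh2, and without the library labelled HFD KO 2 the median of the 8 was -0.23, with 0 of 8 past the threshold. Fold changes in this comparison also ran with gene length, with a Spearman's rho of -0.307 across the 16076 genes, which are not independent of each other. With an offset corrected for length the members' median was -0.26, with 0 of 8 past the threshold. Beta cell markers differed in the same comparison, with a median log2 fold change of -0.41. Of 8, 1 was called lower, where 7.4% of all tested genes were called in either direction. An unadjusted p under 0.05 was found for 5 of 8, and for 24.3% of all tested genes. Ucn3, a late marker of beta cell maturity, fell by 1.13 on the log2 scale (SE 0.19, adjusted p = 0.00459), the glucose transporter gene Slc2a2 had -1.04 (SE 0.29, adjusted p = 0.0521), Nkx6-1 -0.77 (SE 0.26, adjusted p = 0.092), Mafa -0.44 (SE 0.18, adjusted p = 0.169) and Pdx1 -0.38 (SE 0.14, adjusted p = 0.132). Ins1 had 0.58 (SE 0.30, adjusted p = 0.265), Iapp 0.19 (SE 0.30, adjusted p = 0.741) and Ins2 -0.31 (SE 0.30, adjusted p = 0.555). The summed beta cell markers overlapped, at 275372 to 402845 CPM in HFD WT and 243496 to 363472 CPM in HFD KO. Of 5 adipocyte markers, 3 were tested and none was called by edgeR or DESeq2; Fabp4 made up most of their sum and had 34.4 ± 4.68 CPM in HFD KO and 19.8 ± 6.03 CPM in HFD WT (SD, n = 3; log2 difference 0.79, SE 0.30, adjusted p = 0.13, 1 at an unadjusted p under 0.05). The part of these markers' cells in the members' differences was not tested.

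**Figure D3:**
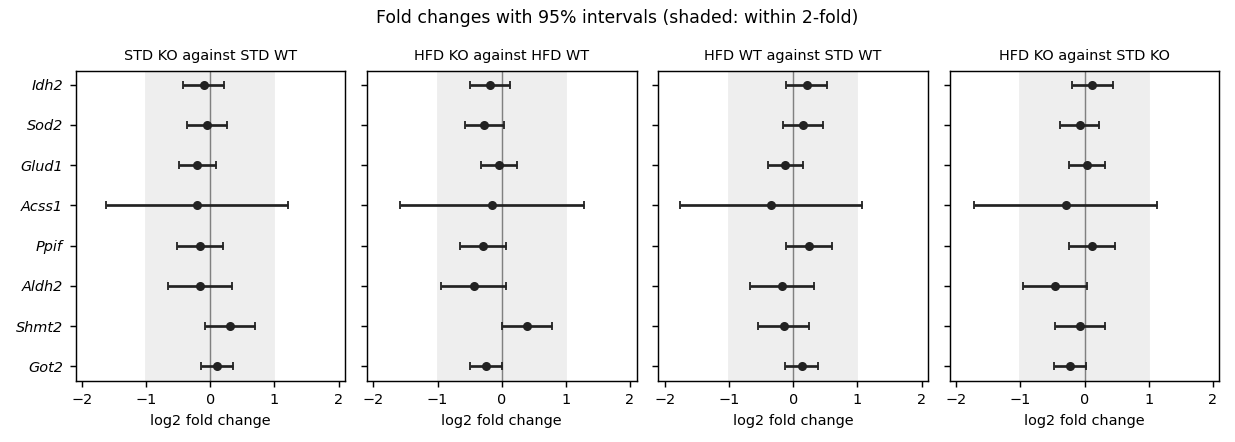
Log2 fold change of each substrate gene (points) with its 95% interval (bars) from edgeR in 4 comparisons; grey marks changes within 2-fold. Apart from Acss1, every interval stays inside the grey zone, from a lowest bound of -0.96 for Aldh2 in HFD KO against STD KO to a highest of 0.79 for Shmt2 in HFD KO against HFD WT.

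Diet alone did not move the substrate genes past the threshold either. In WT islets 0 of 8 passed after 36 weeks of high fat food, with adjusted p = 1 for each and 0 at an unadjusted p under 0.05 (4.74% of all tested genes), and edgeR called 0% of all tested genes; DESeq2 called 0 of 8 and 43 genes in all. Values ran on the log2 scale from -0.35 (SE 0.64) for Acss1 to 0.25 (SE 0.16) for Ppif, with a median of 0.00. Got2 was the 1 of 8 with every HFD WT library above every STD WT library (5.06% of all tested genes), at 79.3 ± 0.384 against 72.6 ± 5.07 CPM (SD, n = 3), and none was below (4.53%). In KO islets 0 of 8 passed between the diets, where 0.0435% of all tested genes did, with 0 at an unadjusted p under 0.05 (12.5% of all tested genes) and 0 by DESeq2. Aldh2 at -0.46 (SE 0.23, adjusted p = 0.432) and Got2 at -0.23 (SE 0.11, adjusted p = 0.435) had the smallest p-values there, and 0 of the 8 genes had every HFD KO library above (5.91% of all tested genes) or below (6.23%) every STD KO library. For the interaction of genotype and diet, edgeR called 0 of 8 and 0% of all tested genes. Only Got2 had an unadjusted p under 0.05 (7.91% of all tested genes), and DESeq2 called 0 of 8.

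By group mean, no common order held across the genes. HFD WT was the highest group for Idh2, Sod2, Ppif and Got2, STD WT for Glud1, Acss1 and Aldh2, and STD KO for Shmt2. The lowest was HFD KO for Sod2, Acss1, Aldh2 and Got2, STD KO for Idh2, Glud1 and Ppif, and HFD WT for Shmt2. The highest mean exceeded the lowest by 1.15-fold (Glud1) to 1.53-fold (Aldh2). Neighbours in these orders overlapped throughout, except HFD WT and HFD KO for Idh2 and for Aldh2.

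Other mitochondrial genes set the substrates in context. Of all tested genes, edgeR called 1.71% in STD KO and 7.4% in HFD KO. Its unadjusted p was under 0.05 for 8.66% and 24.3%. Of 16 further genes whose proteins are reported SIRT3 targets, such as enzymes of fatty acid oxidation, the citrate cycle and the respiratory chain, edgeR called none in STD KO (2 at an unadjusted p under 0.05, 2 by DESeq2) and none in HFD KO (4 and 2), with medians of -0.02 and -0.11 on the log2 scale. Pdp1, a phosphatase that activates pyruvate dehydrogenase, had -0.56 (SE 0.15, adjusted p = 0.113) in STD KO. Among 12 genes of mitochondrial content, edgeR called 0 in STD KO (1 at an unadjusted p under 0.05, 1 by DESeq2) and 1 in HFD KO (3 and 1). That was Ppargc1a, a coactivator of mitochondrial biogenesis, which averaged 9.82 ± 2.36 CPM in HFD WT and 3.32 ± 1.12 CPM in HFD KO (SD, n = 3), fell by 1.56 on the log2 scale (SE 0.29, adjusted p = 0.00795) and had -1.04 (SE 0.29, adjusted p = 0.143) in STD KO. Of 6 tested deacylase and acetylation genes, Sirt3 included, none was called on either diet (1 and 0 at an unadjusted p under 0.05, 0 by DESeq2 on both).

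**Figure D4:**
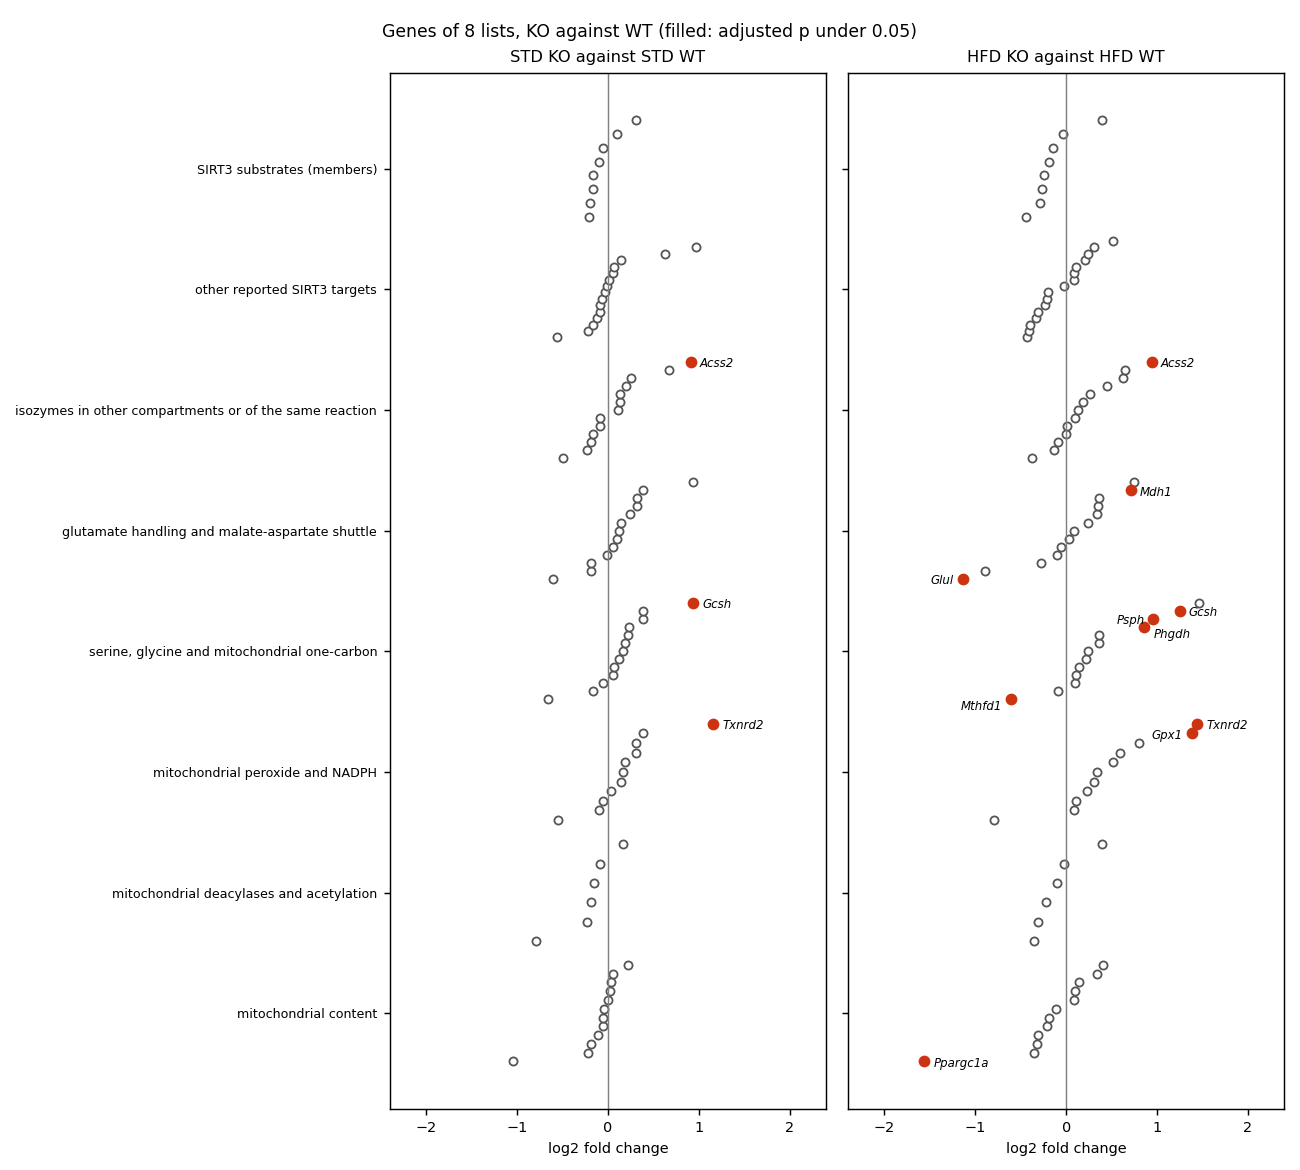
Log2 fold change in KO against WT (horizontal axis) for every tested gene of the substrate list and 7 related lists, on the standard diet (left) and the high fat diet (right); filled and named points passed an adjusted p of 0.05 in edgeR. All 8 substrate genes are open points between -0.44 and 0.39, while Acss2, Gcsh and Txnrd2 are filled on both diets.

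For each substrate gene, the nearest genes in profile over the 12 libraries were looked up. With 10879 candidates and only 8 members, a nearest gene outside the list was likely beforehand. It therefore does not show whether the members are alike. Likeness was the root mean square difference of log2 CPM around each gene's mean, over 10879 genes with a mean of at least 5 CPM. The gene nearest to Sod2 was Kcnmb2 (0.0594), to Got2 Nkiras2 (0.0635), to Glud1 Nsun3 (0.0643), to Ppif Cep83 (0.0928), to Aldh2 Mocs1 (0.0927) and to Idh2 Ranbp6 (0.104). Shmt2 was nearest to Myd88 (0.13) and then Tnip1 (0.148), and Acss1 to Bcl2 (0.253) and Mical1 (0.265), beside their own root mean square spreads of 0.264 and 0.784. Second nearest were Setd3 for Sod2 (0.0661), Reps1 for Got2 (0.0718), Abi1 for Glud1 (0.0859), Gch1 for Ppif (0.115), Sertad2 for Aldh2 (0.148) and Hnrnpl for Idh2 (0.107). Within the 8, the closest pair was Idh2 and Ppif at 0.135.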

How the data were processed

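For each library the authors deposited read counts per Ensembl gene and FPKM. TopHat2, Cufflinks and DESeq, without versions, and the mouse build mm10 are named per the submitters' processing notes. Which annotation release and counting tool were used, and whether strand was, is not given in the sources used here. The deposited FPKM equalled count divided by length and library total for 257939 of 257939 nonzero values (relative tolerance 1e-04), so they hold the same measurement. No column of per-sample values was left unused (0). Gene symbols were matched by ID for 54409 genes, and positions, biotypes and exon lengths came from GENCODE M21.

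Counts were tested with edgeR 4.0.16 in R 4.3.3. Genes passed filterByExpr (minimum count 10, minimum total 15), libraries were scaled by TMM, and a robust quasi-likelihood model with 1 mean per group was fitted to all 12 libraries for 5 contrasts. Benjamini-Hochberg adjustment ran over 16076 genes, with a threshold of 0.05. CPM are on TMM-scaled library sizes, and 95% intervals come from the same fit. The common biological coefficient of variation was 0.307. The code was tested on simulated data. Ratios of a member to a related enzyme used FPKM and a two-sided exact permutation test. Relations with summed markers used permutation tests on log2 CPM; single markers, added after seeing the data, were taken as log2(CPM + 0.1) and described by r.

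Alternatives were DESeq2 1.42.0 size factors and Wald test, no filter, a stricter filter (1 CPM in 6 libraries), limma-trend (limma 3.58.1) on log2(FPKM + 1) or log2(FPKM + 0.1) at a mean FPKM of at least 0.5, fits of only the compared groups, a block for the replicate number, each library left out, STD WT 3 and HFD KO 2 left out together, and an offset for gene length. A block in the HFD groups alone, both of the last together, exon length for FPKM, and the alternatives for genes of the other lists were added after seeing the data. Same-numbered HFD libraries deviated together (r = 0.515, 0.41 and 0.336 across genes), and same-numbered STD libraries did not (r = -0.00396, -0.175 and -0.234). The pairing of HFD libraries by number was tried from the data alone. With 3 libraries a group few matchings exist, and deviations around a group's own mean are not independent. These r therefore cannot settle a pairing. Whether shared cell content gave them was not tested.

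The 8 members, the 7 related lists and 10 marker lists were chosen with earlier results of these data known. The genes named were the members, Sirt3, up to 3 called genes per list and comparison with the smallest p or else the 1 with the smallest p, the enzyme related to each member, and the 2 genes nearest in profile to each; only some of the uncalled ones are printed. Other genes fall outside this rule, among them the marker genes printed singly, the overlapping genes, Nnt and Phgdh. They may have been named with their values known. Protein sequences were not used here. A gene that the rule names is not reported here.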

Additional observations from a re-analysis of the deposited data

How the results depend on the processing

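No member passed the threshold under any alternative: of 888 values, 0 were past it and 54 had the opposite sign to the reported one. The smallest adjusted p on the high fat diet was 0.0846 for Shmt2 and 0.0882 for Got2. In KO against WT on the standard diet, values turned to 0.04 and 0.04 (Idh2), 0.09 and 0.09 (Sod2), and 0.13 and 0.08 (Acss1) with limma-trend on log2 FPKM at pseudocounts of 0.1 and 1, a scale on which the median of all genes was 0.12 and 0.10 in place of -0.02. Sod2 there was 0.06 without STD WT 3 and HFD KO 2. On the high fat diet, Glud1 turned to 0.05 without these 2 libraries, and Acss1 to 0.15 and 0.05 with limma-trend. For HFD KO against STD KO, limma-trend (median of all genes -0.20 and -0.17 in place of -0.03) gave -0.05 and -0.05 for Idh2, -0.14 and -0.14 for Glud1, and -0.06 and -0.05 for Ppif; the length offset gave -0.02 for Idh2 and -0.05 for Glud1. The interaction turned to 0.03 (Idh2) and -0.10 (Shmt2) without the 2 libraries, to -0.02 (Acss1), -0.05 and -0.05 (Shmt2) with limma-trend, and to -0.07 (Acss1) and -0.04 (Shmt2) with the length offset. The cause was not tested.

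With a replicate block in the HFD groups alone, Shmt2 was 0.36 (adjusted p = 0.148), Got2 -0.29 (0.207), Aldh2 -0.47 (0.11) and Acss1 0.09 (0.913); with the block over all groups the Acss1 interaction was -0.02. The block changed no call of a member or of a called gene of the other lists, except that over all groups the HFD call of Phgdh was lost (adjusted p = 0.0543). Leaving out each library in turn, Acss1 ranged from -0.61 to 0.15 (STD KO against STD WT), -0.59 to 0.75 (HFD KO against HFD WT), -1.22 to 0.09 (HFD WT against STD WT) and -0.39 to 0.95 (interaction); Aldh2 from -0.45 to 0.02 (STD KO against STD WT) and -0.46 to 0.01 (interaction); Glud1 from -0.13 to 0.04 (HFD KO against HFD WT) and -0.05 to 0.13 (HFD KO against STD KO); Idh2 from -0.17 to 0.05 (interaction); Shmt2 from -0.25 to 0.05 (HFD KO against STD KO) and -0.10 to 0.27 (interaction); Sod2 from -0.17 to 0.03 (STD KO against STD WT).

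The number of libraries, 3 a group, limits the precision of every fold change here. Acss1, at 29 to 217 counts, has an interval that reaches beyond 2-fold in both directions.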
